A study of Rattus norvegicus with 26 samples.

Results

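Sorted fetal rat hepatocytes labelled LAP+/OC2- were compared with adult rat hepatocytes, both taken before transplantation. The comparison uses 8 of the 26 libraries of the study, chosen by their titles: 4 LAP+/OC2- libraries (biological replicates 1, 3, 4 and 5) and 4 adult libraries (replicates 1 to 4). The adult cells carry the labels adult and hepatocyte, and the fetal cells the labels fetal and hepatocyte. The fetal cells were immunopurified, and the labels do not spell out the surface markers LAP and OC2, so LAP+/OC2- is used here as the name of a sort. Treatment, strain, exact age and sex were not given in the sources used here for either group. RNA of both groups was prepared from cell pellets and went into the same kind of library. Another 4 libraries of unsplit LAP+ fetal cells and 4 of the LAP+/OC2+ sort shared the filter on low counts, scaling and fit. Their values are given only where a value of the LAP+/OC2- sort is set beside them. The remaining 10 libraries, of tissue after transplantation, are not used here.

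The hepatocyte is the main cell type of the liver. In the adult it makes most plasma proteins, clears drugs and hormones with large families of enzymes, and produces bile. The fetal hepatocyte already secretes plasma proteins, while many metabolic enzymes are switched on only around or after birth. The fetal liver is also a site of blood formation, so its hepatocytes lie among immature blood cells. In these files genes carry Ensembl identifiers that could not be paired with symbols. Genes are therefore described by chromosome and position as deposited, by length, by level and by neighbours, and the label hepatocyte could not be checked against marker genes. Positions carry no build, which was not given in the sources used here.

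The LAP+/OC2- libraries held 15273530 to 16874438 counts and the adult libraries 14163256 to 16248869. A count of 0 in a library of this depth allows up to 3 counts, which is 0.178 to 0.212 CPM (counts per 1000000 counts of a library, before scaling). Levels are given in CPM after scaling the library totals with the TMM method, which sets most genes near a common level. The scaling factors were 1.17 to 1.39 for LAP+/OC2- and 0.935 to 0.965 for adult libraries. Among 7139 genes at 10 CPM or more, the median coefficient of variation between replicates was 11.9% in LAP+/OC2- and 12.5% in adult libraries. The labels call the replicates biological but do not say that they came from separate animals, so the p-values measure only the spread between these libraries, which may be technical.

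Single libraries stood apart from the rest of their group, and results that rest on them are given with and without them. Adult library 2 had 57 counts on the 47 features of chromosome Y, where the other adult libraries had 1605 to 2107 and the LAP+/OC2- libraries 1446 to 2232. In the same library 33 of the 7139 genes were at least 4-fold above, and 40 at least 4-fold below, every other adult library. At most 2 genes in either direction were that far from the others in adult libraries 1, 3 and 4. LAP+/OC2- library 1 had 21 genes at least 4-fold below every other library of its group and 0 at least 4-fold above. The other LAP+/OC2- libraries had none in either direction.

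Most genes measured had different levels in the fetal sort and in adult hepatocytes. In LAP+/OC2- cells 4266 of 13818 genes (30.9%) were higher and 3926 (28.4%) lower, at p under 0.05 after Benjamini-Hochberg adjustment over all genes tested (quasi-likelihood test of edgeR). Of these, 2888 genes were at least 2-fold higher (20.9% of all tested) and 2388 at least 2-fold lower (17.3%). A log2 difference of at least 3 was reached by 812 called genes, and one of at most -3 by 506. For 6 and -6 the numbers were 120 and 112.

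The remaining 5626 genes were not called. For 3545 of them the 95% interval of the difference lay within 1 on the log2 scale, so a 2-fold difference in either direction lies outside the interval. All 4 libraries of one group lay above all 4 of the other in 4227 genes for LAP+/OC2- (30.6%) and in 3929 for adult (28.4%). Of the called genes, 3896 of the higher and 3602 of the lower had groups without overlap. Adult library 2 alone brought the groups to overlap in 171 of the 324 lower calls and 109 of the 370 higher calls that overlapped. LAP+/OC2- library 1 alone did so in 78 of these lower calls and in 125 of the higher ones, the most of any library there. The sizes of the 2 directions depend on the scaling. With RLE size factors 4012 genes were higher and 4155 lower, and with DESeq2 4181 and 4369, so that lower calls outnumbered higher ones.

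**Figure D1:**
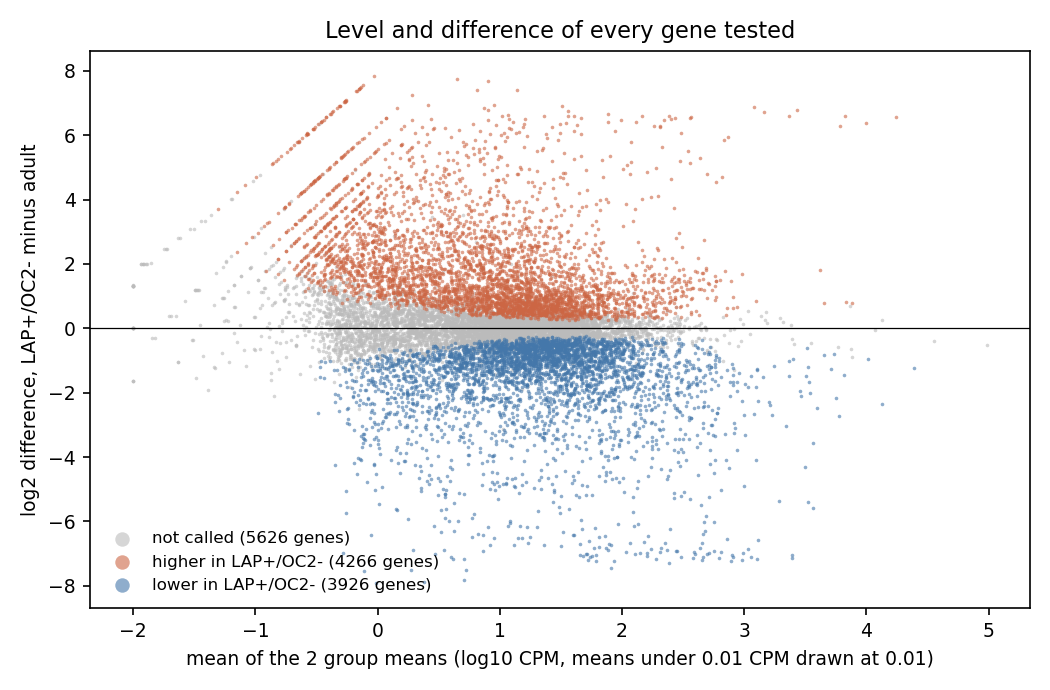
Each point is one of the 13818 genes tested, with the mean of the LAP+/OC2- and adult group means in CPM on a log10 axis and the log2 difference (LAP+/OC2- minus adult) on the vertical axis. The 4266 genes higher in LAP+/OC2- cells spread down to the lowest levels, the 3926 lower genes sit mostly above 1 CPM, and the slanted lines at the upper left are genes with no or few counts in adult libraries.

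Direction changed with the level of the gene. Among 1825 nuclear genes under 1 CPM on average, 39.7% were higher in LAP+/OC2- cells and 6.85% lower. Among 4841 genes from 1 to 10 CPM the shares were 32.9% and 21.8%, and among 6004 genes from 10 to 100 CPM they were 27.6% and 36.0%. Of the 72 genes at 1000 CPM or more, 18.1% were higher and 58.3% lower, with a median log2 difference of -1.19 against 0.06 over all genes tested. LAP+/OC2- libraries also held more kinds of RNA. Drawn down to one common depth, they contained 17344 ± 259 features with a count (SD, n = 4) and adult libraries 16093 ± 142 (SD, n = 4), with no overlap (2-sided exact permutation test p = 0.029, the smallest that 4 against 4 libraries allow, adjusted p = 0.043 over 6 such tests). The order of the shares held in each of these classes with RLE size factors, DESeq2 and limma-voom, which test the same genes. The filter on low counts ran over 12 fetal and 4 adult libraries, so a gene of low level could more easily be kept through fetal than through adult counts, and the shares under 1 CPM depend on it. With the filter over the 8 libraries alone, 894 nuclear genes under 1 CPM were tested, of which 43.2% were higher and 11.7% lower, and with no filter 8661, of which 13.1% were higher and 4.31% lower. In bulk samples, fewer cells of a type and less RNA of a gene per cell cannot be told apart.

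**Figure D2:**
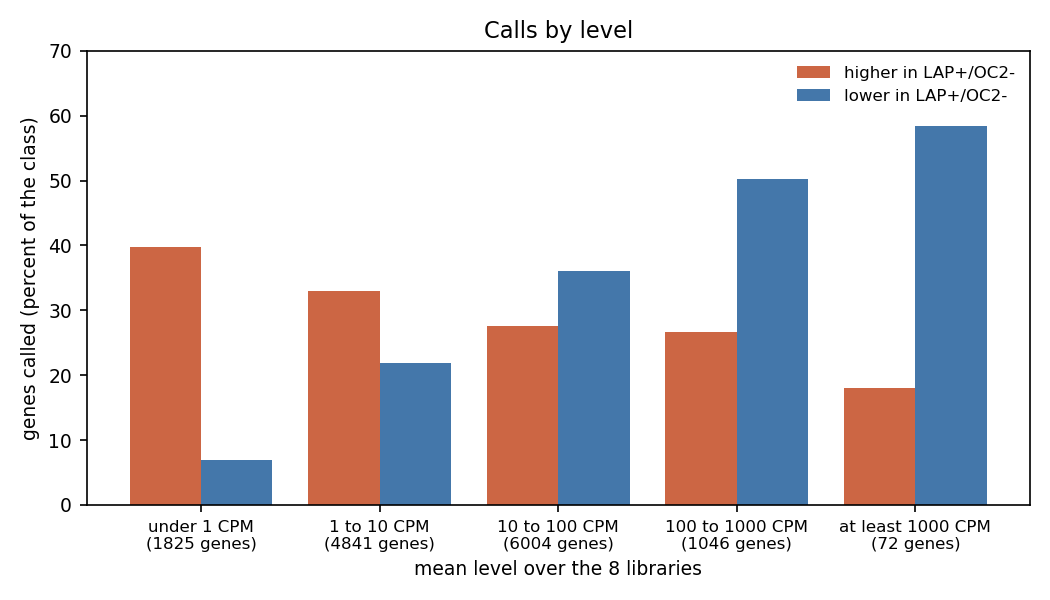
Bars give the percent of nuclear genes called higher (orange) or lower (blue) in LAP+/OC2- cells, in classes of the mean level over the 8 libraries in CPM. The share of higher genes falls from 39.7% to 18.1% and that of lower genes climbs from 6.85% to 58.3% between the lowest and the highest class.

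A large part of the RNA in both groups came from few genes. The top 20 nuclear genes of a library made up 37.8% ± 2.72 of the nuclear counts in LAP+/OC2- and 32.2% ± 0.60 in adult libraries (SD, n = 4 each, no overlap, 2-sided exact permutation test p = 0.029, adjusted p = 0.043). With the 50 most abundant genes the difference was 2.56 percentage points with p = 0.17 (exact permutation test), against 5.60 points with 20. The lists of the 20 most abundant genes of the 2 groups share 11 genes, 55% of each list. All 9 genes found only in the LAP+/OC2- list were higher there, and all 9 found only in the adult list were lower in LAP+/OC2- cells. Since the lists were made from these levels, those directions are a description. Of the 11 shared genes 5 were lower, 1 was higher and 5 were not called. The lower calls of 2 of them, at chr5:78975678-78985990 and chr16:6992062-7007287, ended without adult library 2 and without LAP+/OC2- library 1 (edgeR adjusted p from 0.052 to 0.073).

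The most abundant gene was the same in both groups. It lies at chr14:19176277-19191863, has exons of 2069 nt in total, and took 10.5% of the nuclear counts of LAP+/OC2- and 11.7% of those of adult libraries. Its level was 62345, 79581, 88456 and 87382 CPM in LAP+/OC2- libraries 1, 3, 4 and 5, and 118495, 124627, 102289 and 112060 CPM in adult libraries 1 to 4. All adult libraries were above all LAP+/OC2- libraries, yet the log2 difference of -0.53 (SE 0.31) was not called (edgeR adjusted p = 0.16, 95% interval -1.18 to 0.13).

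Its neighbour, 16353 nt away at chr14:19141755-19159923, was higher in LAP+/OC2- cells. It was at 39996, 30068, 33967 and 34427 CPM in LAP+/OC2- libraries 1, 3, 4 and 5 and at 366, 361, 397 and 343 CPM in the adult libraries. It was thus the second most abundant nuclear gene of LAP+/OC2- cells and number 325 of adult cells. The log2 difference was 6.56 (SE 0.33, edgeR adjusted p = 8.8e-11). Its adult level, 1.06% of the LAP+/OC2- level, lies in the band of lowest levels that abundant genes share, described further on, and may be an upper limit. Per kilobase of exon, the neighbour reached 17394 CPM in LAP+/OC2- cells, below the 38396 CPM per kilobase of the most abundant gene.

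Of the remaining genes that were only on the LAP+/OC2- list, 5 lay far above adult levels and 3 rose less. A single gene at chr1:215828102-215846911 was at 5400 ± 659 CPM against 49.2 ± 3.60 CPM in adult cells (SD, n = 4 each), a log2 difference of 6.78 (SE 0.34). A gene at chr3:119057517-119075619 was at 4592 ± 785 CPM against 47.6 ± 3.07 CPM, a log2 difference of 6.59 (SE 0.36). Both were called (edgeR adjusted p = 1.1e-10 and 2.6e-10), and in both the lowest LAP+/OC2- library was far above the highest adult library. Another 3 belong to the runs on chromosomes 10 and 1 described further on. A gene at chr11:81421676-81444621 was at 6517 ± 1159 CPM against 1858 ± 1379 CPM. Its adult mean rests on library 2, at 3926 CPM where the others were at 1100 to 1223, and its log2 difference of 1.81 became 2.46 without that library.

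A gene at chr8:50525091-50526875 was at 5673 ± 464 against 3312 ± 500.3 CPM (log2 difference 0.78, SE 0.27, adjusted p = 0.021), and its call ended without adult library 2 or 3.

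Smaller rises stood closer to the spread between libraries. At chr2:181987217-182038178 3 neighbouring genes were at 8624, 9665 and 9062 CPM in LAP+/OC2- cells, against 4913, 5657 and 5663 CPM in adult cells, in order of position. In each, LAP+/OC2- library 1 was lowest of its group, at 5628, 6147 and 5650 CPM. The first 2 were called (edgeR adjusted p = 0.033 and 0.030) and the third was not (adjusted p = 0.065). The calls of the first and second ended in 7 and 6 of the 8 fits with 1 library left out, and the third was called without LAP+/OC2- library 1 (adjusted p = 0.028).

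Genes abundant in adult cells were mostly lower in the fetal sort. Of the 50 nuclear genes with the highest adult levels, 37 were lower and 3 higher, beside 28.4% and 30.9% of all genes tested, and the median log2 difference was -1.98. Without adult library 2 the counts were 35 and 0 (1 higher at an unadjusted p under 0.05, edgeR). Choosing genes by their adult level favours those that were lower in the other group, so these counts are a description. The 50 genes with the highest LAP+/OC2- levels held 19 higher and 15 lower genes, with a median of 0.25. A gene at chr1:80612895-80617057, the third most abundant of adult cells, was at 4417 ± 606 CPM in the fetal sort and 22404 ± 3198 CPM in adult cells (SD, n = 4 each). Its log2 difference was -2.34 (SE 0.27, edgeR adjusted p = 1.4e-06). The largest falls among the 20 were those of a gene at chr4:154391647-154729310, from 7095 ± 1485 CPM in adult to 148 ± 49.4 CPM in LAP+/OC2- cells, and of a gene at chr13:91054974-91093713, from 6531 ± 598 to 156 ± 34.9 CPM. Their log2 differences were -5.58 (SE 0.61) and -5.39 (SE 0.34), and the groups did not overlap in either gene.

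A pair of overlapping genes on chromosome 6 varied most among the LAP+/OC2- libraries. The gene at chr6:127941526-128080889 was at 86.6 CPM in LAP+/OC2- library 1 and at 768, 784 and 659 CPM in libraries 3, 4 and 5, against 3580 to 8926 CPM in adult libraries. The gene at chr6:127996165-128003418, which lies inside it, was at 59.7 CPM in library 1 and at 429, 401 and 315 CPM in the others, against 3944 to 7664 CPM in adult libraries. Both were lower than in adult cells in every LAP+/OC2- library (log2 differences -3.56 and -4.32, edgeR adjusted p = 0.0013 and 0.00074). With a strand setting not given in the sources used here, reads of overlapping genes cannot be told apart.

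**Figure D3:**
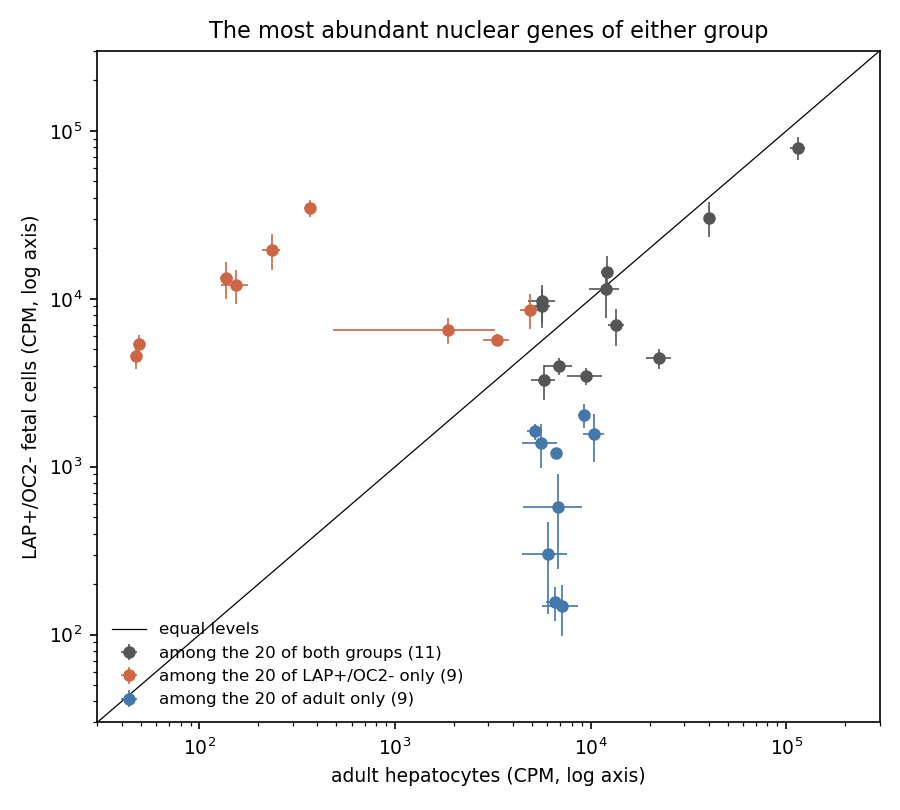
Points are the 29 nuclear genes among the 20 most abundant of LAP+/OC2- or adult cells, with the group mean of adult (horizontal) and LAP+/OC2- cells (vertical) in CPM on log axes and bars of 1 SD (n = 4 each). The 9 genes only on the LAP+/OC2- list lie above the line of equal levels, 6 of them far above, and the 9 only on the adult list lie below it.

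Among called genes whose groups did not overlap and whose higher group averaged 10 CPM or more, the largest rise was that of ENSRNOG00000012557, at chr10:66225995-66229311 with 4 exon blocks. It was at 12.4, 13.5, 18.2 and 19.2 CPM in LAP+/OC2- libraries 1, 3, 4 and 5 and at 0.15, 0, 0 and 0.135 CPM in adult libraries 1 to 4, that is, 4 counts in all adult libraries together. The log2 difference was 7.69 (SE 0.57). The second, ENSRNOG00000017198 at chr1:78976318-78997869 with 15 exon blocks, was at 22.4 to 32.4 CPM in LAP+/OC2- libraries and at 0.066 to 0.300 CPM in adult libraries (log2 difference 7.41, SE 0.45). Adult cells were at or near the limit of detection for both. The first gene also differed from unsplit LAP+ cells, where it was at 3.60 ± 2.07 CPM (SD, n = 4, log2 difference 2.13, edgeR adjusted p = 0.0046), and the second was at 21.1 ± 9.27 CPM there (log2 difference 0.38, adjusted p = 1).

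The largest fall was that of ENSRNOG00000029223 at chr10:13196946-13202392, which had 3 counts in the 4 LAP+/OC2- libraries together. Its adult levels were 1.57, 30.3, 4.74 and 4.19 CPM in libraries 1 to 4, so that library 2 was far above the others. The log2 difference was -7.83 (SE 1.04) with all libraries and -6.31 without adult library 2. The ratio of the pooled levels, adult to LAP+/OC2-, was 285 with an exact 95% interval of 97.1 to 1386 that covers counting error only, and 96.7 (32.5 to 474) without adult library 2. The other 3 adult libraries averaged 3.50 CPM, so without library 2 the gene would fall short of the 10 CPM asked for here and of the fall of the next gene. The second fall, ENSRNOG00000062154 at chr9:65089965-65146672, had 4 counts in the LAP+/OC2- libraries and 3.15, 7.40, 14.5 and 17.0 CPM in adult libraries 1 to 4 (log2 difference -7.51, SE 0.69, and -7.67 without adult library 2). Its ratio was 217 with an interval of 84.1 to 797.

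A small part of the genes that changed by 2-fold or more lay in runs of neighbours that changed in the same direction. A run is defined here as at least 4 neighbouring tested genes, all called in the same direction and at least 2-fold different, no more than 500000 nt apart. There were 42 runs of higher genes with 233 genes, 8.07% of all genes at least 2-fold higher, and 31 runs of lower genes with 146 genes, 6.11% of those at least 2-fold lower. Of all genes tested, 20.9% were at least 2-fold higher and 17.3% at least 2-fold lower. How many runs these shares alone would give was not tested. The 8 runs in each direction that hold at least 8 genes or have a median log2 difference beyond 4 are described next. Runs were chosen by the direction and size of their genes, so their sizes are a description without a test. Neighbours can be copies that share reads, and how such reads were counted was not given in the sources used here.

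The longest run lies at chr6:133552821-133898905 and holds 31 higher genes, of which 28 have exons under 200 nt in total. Its summed level was 1722, 1276, 1205 and 1218 CPM in LAP+/OC2- libraries 1, 3, 4 and 5, and 13.2 to 15.9 CPM in adult libraries. Every LAP+/OC2- library was far above every adult library. A gene of 1608 nt of exon at chr6:133552821-133583751 carried 53.4% of the sum in LAP+/OC2- cells, at 723 ± 295 CPM against 7.61 ± 1.18 CPM in adult cells (SD, n = 4 each). Another long gene, at chr6:133667975-133676907, was at 497 ± 70.8 CPM against 5.49 ± 0.69 CPM. Of the 31 genes, 13 had no count in any adult library. The median fitted log2 difference was 6.44, and 4.57 when those 13 genes were set at the limit that a count of 0 allows. None of the 31 genes differed from unsplit LAP+ cells at an adjusted p under 0.05 (edgeR, smallest adjusted p = 0.90), and 0 did at an unadjusted p under 0.05.

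The run at chr10:15577249-15610826 held 5 higher genes and the largest sums of the described runs, and a run of 5 genes at chr1:168945449-169005190 came next. On chromosome 10 the sum was 29400, 22052, 38006 and 37020 CPM in LAP+/OC2- libraries 1, 3, 4 and 5 against 341 to 438 CPM in adult libraries. On chromosome 1 it was 14729, 11342, 19520 and 19430 CPM against 153 to 186 CPM. The order of the 4 LAP+/OC2- libraries was the same in both runs, with library 3 lowest and library 4 highest. A pair of short genes carried nearly all of the chromosome 10 sum, chr10:15602794-15603649 at 19581 ± 4696 CPM against 234 ± 24.9 CPM and chr10:15589364-15590220 at 12012 ± 2753 CPM against 153 ± 24.0 CPM (SD, n = 4 each). On chromosome 1 a gene at chr1:168971274-168972725 carried 81.7% of the sum. In unsplit LAP+ libraries 1 to 4 the sum was 5166, 12493, 24927 and 10142 CPM on chromosome 10 and 2481, 6023, 11407 and 4743 CPM on chromosome 1. In both runs all but the third LAP+ library lay below every LAP+/OC2- library. None of the 10 genes differed between the LAP+/OC2- sort and LAP+ cells at an adjusted p under 0.05 (edgeR, smallest adjusted p = 0.10). At an unadjusted p under 0.05, 4 of the 5 on chromosome 10 and 3 of the 5 on chromosome 1 did. The fit has group as its only term, and this comparison was not fitted with LAP+/OC2- and LAP+ libraries in pairs.

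Higher runs of moderate size lay on chromosomes X, 20 and 13. The 8 genes at chrX:106360393-106825014 summed to 307, 309, 330 and 330 CPM in LAP+/OC2- libraries 1, 3, 4 and 5 and to 42.6 to 49.0 CPM in adult libraries, with a median log2 difference of 3.67. Among them a gene at chrX:106556838-106558366 was at 61.5 ± 6.41 CPM against 0.906 ± 0.068 CPM (log2 difference 6.07, SE 0.18). On chromosome 20, 8 genes at chr20:4983165-5076586 summed to 189 CPM in LAP+/OC2- library 1 and to 117 to 118 CPM in libraries 3, 4 and 5, against 39.1 to 42.5 CPM in adult libraries. The median log2 difference of this run, 2.48, became 3.33 without adult library 1, 1.73 with limma-voom and 1.77 with the 8 libraries fitted alone. The call of the gene at chr20:5061658-5064469 ended in 5 of the 8 fits with 1 library left out, those without adult library 2, 3 or 4 or LAP+/OC2- library 3 or 4. That of the gene at chr20:4983165-4983847 ended without LAP+/OC2- library 1, so the run of 8 does not hold throughout. Of its 8 genes 5 were under 1 CPM in LAP+/OC2- cells. At chr13:78852741-78855688, 9 genes under 200 nt of exon summed to 38.6, 26.5, 25.6 and 23.9 CPM in LAP+/OC2- libraries 1, 3, 4 and 5 against 2.71 to 4.52 CPM in adult libraries (median log2 difference 2.84).

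The last 2 higher runs were low in level and uneven among the LAP+/OC2- libraries. At chr3:154849408-154869460, 4 genes summed to 27.1 CPM in LAP+/OC2- library 1 and to 116, 104 and 95.8 CPM in libraries 3, 4 and 5, against 1.38 to 2.30 CPM in adult libraries. At chr15:34751550-35113678, 4 genes summed to 4.55, 7.37, 7.48 and 12.3 CPM in LAP+/OC2- libraries 1, 3, 4 and 5 and to 0.131 to 0.593 CPM in adult libraries. Their median log2 differences of 4.30 and 4.29 became 5.05 and 5.05 without adult library 2 and adult library 3, in that order. In unsplit LAP+ cells the chromosome 15 sum was 27.8 ± 14.0 CPM (SD, n = 4), and in the LAP+/OC2+ sort 135 ± 37.3 CPM. LAP+ libraries overlapped the LAP+/OC2- libraries in this sum, and 1 of the 4 genes was lower in LAP+/OC2- than in LAP+ cells (edgeR adjusted p = 2.2e-05). That gene, at chr15:35001838-35020760, was at 0.515 CPM in this sort, at 16.4 CPM in LAP+ cells and at 0.085 CPM in adult cells, and its rise over adult cells (log2 difference 2.49) was not called without adult library 2 or without LAP+/OC2- library 5.

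Of the lower runs, that at chr20:3973420-4508214 held 10 genes, the most of any. Its sum was 113, 128, 128 and 118 CPM in LAP+/OC2- libraries 1, 3, 4 and 5, and 587, 1155, 728 and 642 CPM in adult libraries 1 to 4. The groups did not overlap, and the adult group varied more than the fetal sort. The largest single gene, chr20:4302347-4508214, fell from 483 ± 207 to 82.5 ± 8.22 CPM (SD, n = 4 each), and the gene with the largest change, chr20:3990613-3993769, from 90.2 ± 16.05 to 3.05 ± 0.52 CPM (log2 difference -4.88, SE 0.32). The higher run on chromosome 20 lies farther along the same chromosome, so neighbouring stretches of it changed in opposite directions.

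The described lower runs with the largest median differences lay on chromosomes 5 and 1, and in both adult library 2 was unlike the other adult libraries. Without that library the run on chromosome 1 came after those on chromosomes 5, 9 and 12. At chr5:77245143-78131114, 8 genes summed to 48.2, 46.8, 33.5 and 27.9 CPM in LAP+/OC2- libraries 1, 3, 4 and 5. Adult libraries 1, 3 and 4 were at 6514, 7248 and 5952 CPM, but adult library 2 was at 39.5 CPM, within the LAP+/OC2- range. The groups therefore overlapped, and the median log2 difference was -7.08 with all libraries and -7.51 without adult library 2. Adult library 2 was at 0.60%, and the LAP+/OC2- mean at 0.59%, of the mean of the other adult libraries. Both values may be upper limits, as in the band of lowest levels described further on. In unsplit LAP+ libraries the sum was 2.44 to 6.96 CPM. At chr1:147422779-148287217, 4 genes summed to 42.1, 43.6, 28.4 and 25.4 CPM in LAP+/OC2- libraries 1, 3, 4 and 5 against 3067, 2309 and 2794 CPM in adult libraries 1, 3 and 4. Here adult library 2 was higher than the rest of its group, at 10943 CPM. The median log2 difference was -7.03, and -6.52 without adult library 2. The 2 runs thus moved in opposite directions in that library.

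Adult library 2 was low in further runs as well. The 4 genes at chr12:10636275-10789282 summed to 828, 721 and 817 CPM in adult libraries 1, 3 and 4, to 48.5 CPM in library 2, and to 6.66 to 9.24 CPM in LAP+/OC2- libraries. The 5 genes at chr9:4621425-4978892 were at 212, 247 and 265 CPM in adult libraries 1, 3 and 4, at 55.2 CPM in library 2 and at 1.09 to 2.63 CPM in LAP+/OC2- libraries. The 5 genes at chr14:22072024-22619968 were at 3739, 4020 and 4152 CPM in adult libraries 1, 3 and 4, at 1732 CPM in library 2 and at 186 to 208 CPM in LAP+/OC2- libraries. In these 3 runs library 2 lay between the other adult libraries and the fetal sort, and no LAP+/OC2- library reached it. Their median log2 differences were -6.55, -6.70 and -6.30, and -6.94, -7.05 and -6.41 without that library. The same library had few chromosome Y counts, and the part of that difference in these runs was not tested.

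Within the chromosome 14 run the members differed. The gene at chr14:22072024-22089248 was at 10.1 ± 3.73 CPM against 1536 ± 1052 CPM, while chr14:22553650-22591461 was at 168 ± 12.9 CPM against 531 ± 59.3 CPM (SD, n = 4 each). The latter carried most of what remained of the run in LAP+/OC2- cells. The run of 5 genes at chr17:69365453-69647765 was alike in this respect: its log2 differences ranged from -6.96 to -1.09. Its sum was 59.4 to 79.5 CPM in LAP+/OC2- libraries and 359 to 518 CPM in adult libraries, with library 2 inside the adult range at 453 CPM. The 4 genes at chr7:70640075-70815270 summed to 70.7 to 81.6 CPM in LAP+/OC2- libraries and to 629, 369, 1021 and 855 CPM in adult libraries 1 to 4, again with library 2 the lowest adult library.

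**Figure D4:**
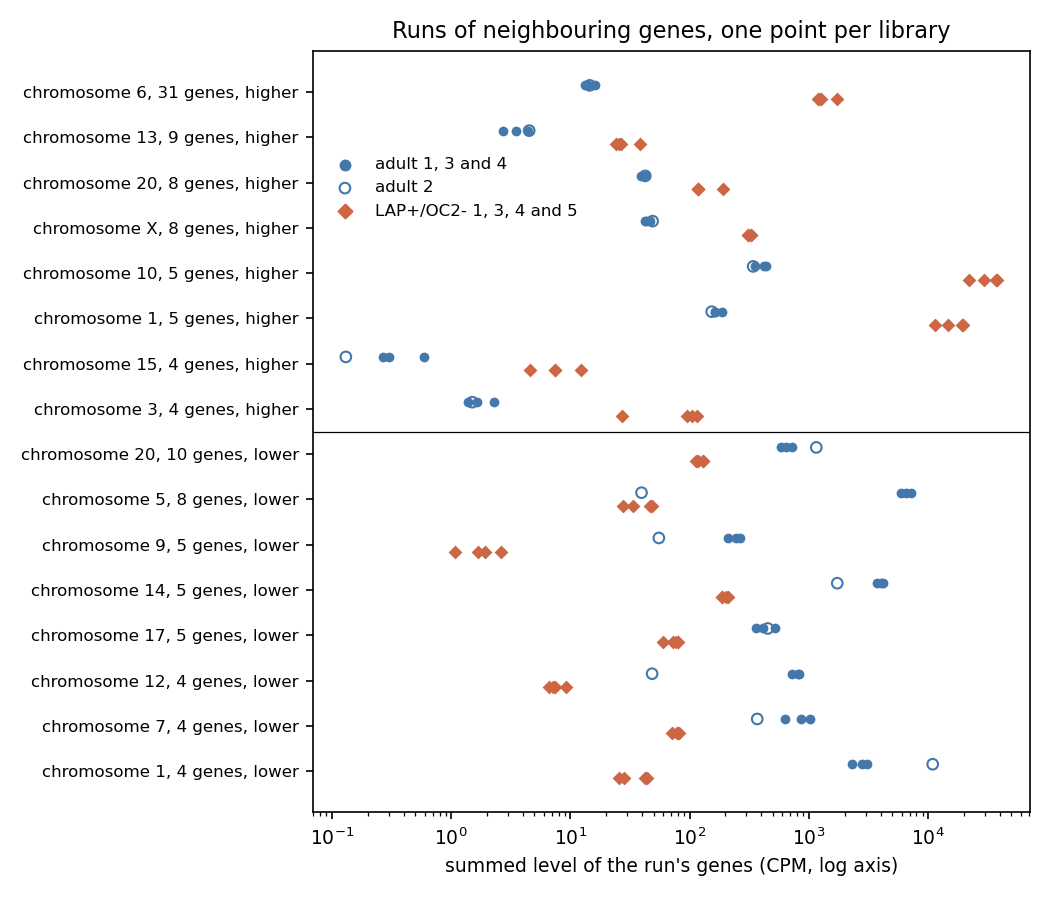
Each row is one of the 16 described runs, with its chromosome, number of genes and direction, and each point is the summed level of its genes in one library in CPM on a log axis (blue circles adult, the open circle adult library 2, orange diamonds LAP+/OC2-). Adult library 2 falls among the LAP+/OC2- libraries in the run on chromosome 5, at 39.5 CPM, and is the highest adult library in the lower run on chromosome 1, at 10943 CPM.

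Very short genes were mostly higher in LAP+/OC2- cells. Of 189 nuclear genes tested with exons under 200 nt in total, 111 were higher (58.7%) and 9 lower (4.76%), beside 30.9% and 28.4% of all genes tested. Their median log2 difference was 2.00 against 0.06 over all genes tested. Counts on such features made up 0.390% to 0.410% of the nuclear counts of LAP+/OC2- and 0.063% to 0.162% of those of adult libraries (2-sided exact permutation test p = 0.029, adjusted p = 0.043, n = 4 each). Most of the LAP+/OC2- share came from a single feature, chr1:215745981-215746064. Its mean level was 2382 CPM in this sort, against an adult mean of 20.2 CPM. The shares without that feature were not tested, so their difference does not describe very short genes as a class. The runs on chromosomes 6 and 13 hold 37 of the 111. Of 1507 genes from 200 nt to under 1000 nt, 37.4% were higher and 19.97% lower, and the classes of longer genes had about equal shares in both directions.

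By chromosome, X lay outside the range of the autosomes. On the 20 autosomes 27.0% (chromosome 16) to 34.4% (chromosome 6) of the tested genes were higher, and 25.8% (chromosome 14) to 35.3% (chromosome 20) lower. Of 419 genes on X, 36.5% were higher and 21.5% lower. X took 1.65% ± 0.067 of the nuclear counts in LAP+/OC2- and 1.43% ± 0.024 in adult libraries (SD, n = 4 each, no overlap, 2-sided exact permutation test p = 0.029, adjusted p = 0.043). None of the 7 genes tested on Y was called in edgeR (0 at an unadjusted p under 0.05, and 0 with DESeq2 or limma-voom). Without adult library 2, 1 of them was lower in LAP+/OC2- cells. The CPM of chromosome Y among nuclear counts was 119 ± 23.8 and 99.9 ± 64.8 (exact permutation test p = 0.80).

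Mitochondrial genes encode subunits of the respiratory chain and the RNAs needed to translate them. They took 4.73%, 5.92%, 4.27% and 4.83% of all counts in LAP+/OC2- libraries 1, 3, 4 and 5, and 7.62%, 7.66%, 10.3% and 5.31% in adult libraries 1 to 4. The groups overlapped through adult library 4, and the difference of -2.79 percentage points did not pass the test (2-sided exact permutation test p = 0.057, adjusted p = 0.069). In the test of single genes, 9 of the 13 mitochondrial genes of 200 nt or more were lower in LAP+/OC2- cells (69.2%, beside 28.4% of all genes tested) and 0 were higher. At an unadjusted p under 0.05 in edgeR 10 were lower and 0 higher, with DESeq2 10 and 0, and with limma-voom 11 and 0. Of the 17 mitochondrial features under 200 nt, 5 were lower and 1 was higher (median log2 difference -0.40). The single-gene test uses TMM-scaled library sizes and the share does not.

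The lowest levels in one group of genes abundant in the other lay in a band with a lower edge above 0.5%. Its upper edge, 2%, is a chosen cut. Of 1002 nuclear genes above 100 CPM in every adult library, LAP+/OC2- cells had a median of 51.5% of the adult level. In 41 of them the LAP+/OC2- level was under 2% of the adult level, with a median of 0.84%, and the lowest was 0.634%. Another 21 genes lay from 2% to 4% and 41 from 4% to 8%. The highest in adult cells were a gene at chr8:41657566-41661238, at 4923 CPM in adult and 35.0 CPM in LAP+/OC2- cells, and one at chr13:47572219-47591699, at 4867 and 37.1 CPM. None of the 41 was under 0.5%, although adult levels of these 41 genes ran from 119 to 4923 CPM. Per library, the median over the 41 genes was 0.98%, 1.05%, 0.67% and 0.68% of the adult mean in LAP+/OC2- libraries 1, 3, 4 and 5. In unsplit LAP+ libraries the same genes had medians of 0.120% to 0.134%, and in the LAP+/OC2+ sort 0.419% to 0.843%.

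The opposite direction showed the same. Of 720 nuclear genes above 100 CPM in every LAP+/OC2- library, 25 had an adult level under 2% of the LAP+/OC2- level, with a median of 1.12% and a lowest value of 0.849%. Their levels in LAP+/OC2- cells ran from 172 to 34614 CPM. Another 15 genes lay from 2% to 4% and 8 from 4% to 8%. Among them was a feature of a single short exon at chr1:215745981-215746064, at 2382 CPM in the fetal sort against 20.2 CPM in adult cells. It lies near the gene at chr1:215828102-215846911 described above. Per library the median over the 25 genes was 1.10%, 1.10%, 1.23% and 1.12% in adult libraries 1 to 4. The fitted log2 differences of the abundant genes that changed most therefore lay close together in both directions. Median differences of the runs on chromosomes 1, 5, 9, 10 and 12 lay there too, as did some members of the lower runs on chromosomes 14 and 17. In the run on chromosome 6, the genes at chr6:133552821-133583751 and chr6:133667975-133676907 lay there. The fitted median of that run, 6.44, became 4.57, outside the band, with its 13 genes without adult counts set at their limit. Whether counts carried over between libraries sequenced together set this band was not tested. Levels inside it may therefore be upper limits, and the sizes of those differences lower limits.

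**Figure D5:**
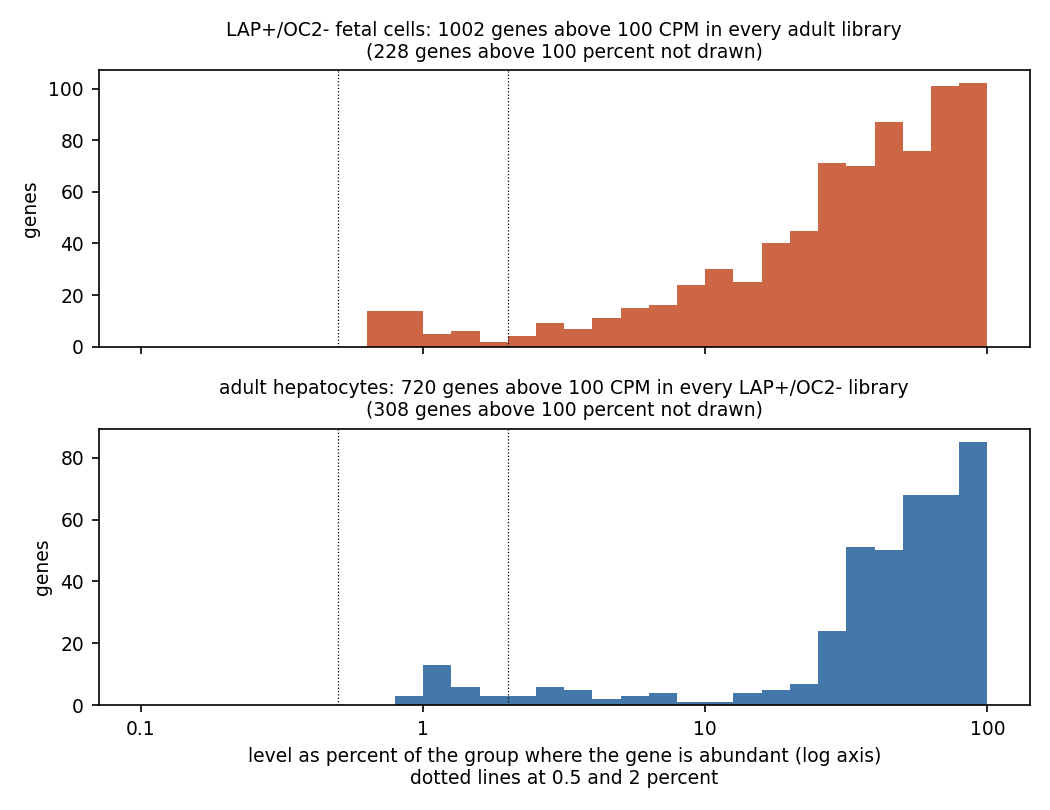
Histograms of the level in the other group as percent of the group where the gene is abundant, on a log axis, for genes above 100 CPM in every adult library (upper) and in every LAP+/OC2- library (lower). In both directions some genes lie between the dotted lines at 0.5% and 2%, with medians of 0.84% (41 genes) and 1.12% (25 genes). Further genes lie just above 2%, and no gene lies below 0.5%.

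Against unsplit LAP+ cells, few genes of the LAP+/OC2- sort were called. LAP+/OC2- and LAP+ libraries were not fitted in pairs, so few calls do not show that few genes differed. In the same edgeR fit 34 of the 13818 genes (0.246%) exceeded their LAP+ level in the LAP+/OC2- sort and 20 (0.145%) fell short of it at an adjusted p under 0.05, and 915 had an unadjusted p under 0.05. Of the 34, 30 were genes lower in LAP+/OC2- than in adult cells, beside 28.4% of all genes tested. Over the 34 genes the median level was 435 CPM in adult cells, 0.155 CPM in LAP+ cells, 6.08 CPM in the LAP+/OC2- sort and 5.14 CPM in the LAP+/OC2+ sort. The median of LAP+/OC2- levels as percent of adult levels was 0.794%, inside the band described above, and that of LAP+ levels 0.050%, so that the limit on levels in the band holds for these genes too. All 4 genes of the lower run on chromosome 1 were among the 34, with sums of 34.9 ± 9.28 CPM in LAP+/OC2- cells against 0.136 ± 0.022 CPM in LAP+ cells (SD, n = 4 each). Of the 20 genes lower than in LAP+ cells, 9 were higher in LAP+/OC2- than in adult cells and none was lower. Among all genes tested the shares were 30.9% and 28.4%. Both comparisons use the same LAP+/OC2- libraries.

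Genes without any count in a group were of low level in the other. Of the tested genes, 95 had no count in the adult libraries, of which 57 were called higher, and their highest LAP+/OC2- mean was 1.86 CPM. Fitted differences of such genes depend on the small count that the fit adds before the log. Another 13 had no count in LAP+/OC2- libraries, of which 3 were called lower, and their highest adult mean was 1.95 CPM. At 10 CPM or more, no tested gene was without counts in either group. The part of the band described above in this was not tested.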

How the data were processed

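The deposited values are raw counts per gene feature (32552 features), as the authors' counting gave them, with exon coordinates and length, per the file headers. The submitters' processing notes name STAR 2.5.2b, featureCounts (Subread 1.5.2), Trimmomatic 0.36 and bcl2fastq 2.17. Genome build, annotation and strand setting were not given in the sources used here. A RefSeq table of 47357 genes (assembly GRCr8) paired 0 identifiers with a symbol. Lists of marker and pathway genes could therefore not be applied, and no sequence is printed.

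Groups were taken from the sample titles. All 16 libraries before transplantation entered 1 fit in R 4.3.3 with edgeR 4.0.16 (TMM, filterByExpr, robust quasi-likelihood F test, group as the only term), and 13818 genes passed the filter on low counts. A gene was called at a Benjamini-Hochberg adjusted p under 0.05 over all of them. The LAP+/OC2+ libraries in that fit had 38.9% to 78.6% mitochondrial counts, against 4.27% to 5.92% in LAP+/OC2- libraries. With the 8 libraries fitted alone, 2574 genes were at least 2-fold higher and 2322 at least 2-fold lower. The 10 libraries after transplantation were not used here. Per-library shares were compared with exact permutation tests (scipy 1.17.1). The edgeR step was tested on simulated data. All replicate pairs differed by more than sampling noise (chi-square divided by its degrees of freedom, 5.21 to 125). Equal replicate numbers are not said to share an animal. Alternatives were other size factors, filters and libraries in the fit, DESeq2 1.42.0, limma-voom (limma 3.58.1), and leaving out each library. Totals of 14163256 to 16874438 counts put the limit of a count of 0 at 0.178 to 0.212 CPM. That limit and the intervals of pooled ratios cover counting error only. Intervals of fitted differences rest on the SE of the fit, which includes the spread between libraries.

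The comparison, the groups of genes and the runs were chosen with earlier results of these data known. By rule, identifiers are printed for the 2 largest rises and falls among called genes of at least 10 CPM in the higher group whose groups do not overlap. Other genes were chosen by level or by runs, and single members after their values were seen.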

Additional observations from a re-analysis of the deposited data

Results flagged for a closer look

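In groups of 4 libraries, a value was set apart when its gap to the nearest other library was a larger part of the whole range than Dixon's 95% critical value, and 62 such groups were looked at. Chance sets about 1 in 20 apart (5%). In all 9 values were set apart, of which 8 by this rule.

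Adult library 2 held 4 of them. It was at 30.3 CPM for ENSRNOG00000029223, where the other adult libraries were at 1.57 to 4.74. It was at 1732 CPM for the lower run on chromosome 14 (others 3739 to 4152) and at 48.5 CPM for that on chromosome 12 (others 721 to 828). In the lower run on chromosome 1 it was above the others, at 10943 CPM against 2309 to 3067.

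LAP+/OC2- library 1 held 2. It was at 1722 CPM for the run on chromosome 6 (others 1205 to 1276) and at 188.8 CPM for the higher run on chromosome 20 (others 117 to 118). In that same run on chromosome 20, adult library 4 was at 39.1 CPM, with the others at 41.9 to 42.5. ENSRNOG00000029223 was at 0 CPM in LAP+/OC2- library 4, where the other 3 libraries each held 1 count.

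The difference of ENSRNOG00000012557 from adult cells was larger in the LAP+/OC2- sort than in unsplit LAP+ cells. The log2 difference between the 2 fetal groups was 2.13 (edgeR adjusted p = 0.0046), and all 4 LAP+/OC2- libraries, at 12.4 to 19.2 CPM, were above all 4 LAP+ libraries, at 1.54 to 6.46 CPM.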

How the results depend on the processing

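The counts of called genes stayed within 1.5 times of those reported in all 17 alternative fits: 3796 to 4829 higher, 3336 to 4561 lower, 2574 to 3238 at least 2-fold higher and 2283 to 2687 at least 2-fold lower. With the replicate number as a block, 3796 genes were higher and 3336 lower. Only LAP+/OC2- library 5 carries the number 5, so in that fit it adds nothing to the difference. The blocks also join LAP+/OC2- and LAP+ libraries of equal number, which were not the pairs most alike. The 3 shared numbers do not pair the libraries: deviations of same-numbered adult and LAP+/OC2- libraries correlated at 0.07, -0.03 and 0.05, and not every library correlated best with its own number. Of the 8192 calls, 7039 (replicate block) to 8096 (limma-voom) were called again, and 2 genes were called in the opposite direction without adult library 2. The difference in the share of the 20 most abundant genes lost its call in every alternative: it was 2.56 percentage points with 50 genes, and 4.88 to 6.83 with 1 library left out, where 3 against 4 libraries cannot give a p under 0.057. The mitochondrial share was lower by 1.93 to 3.60 points and not called in any. The 4 genes named by identifier were called in all fits, and ENSRNOG00000029223 was at -6.17 with limma-voom and -6.53 with the replicate block against -7.83. The fits of runs, classes and single genes under the alternatives were added after seeing the data. Runs held 165 to 249 higher and 131 to 199 lower genes. The median log2 difference of the higher run on chromosome 6 was 5.17 with limma-voom and 6.12 with DESeq2 against 6.44, and that of the higher run on chromosome 20 was 1.73 (limma-voom) to 3.33 (without adult library 1) against 2.48. For the higher run on chromosome X it was 3.48 to 3.84 against 3.67, and for the lower run on chromosome 17 -5.55 to -4.65 against -5.06. Without the filter on low counts, the share of higher genes under 1 CPM was 13.1% against 39.7%. The precision of genes under 1 CPM is limited by few counts.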

Other observations

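Deviations of single LAP+/OC2- libraries from their group mean resembled those of single unsplit LAP+ libraries. Across 7139 genes of at least 10 CPM, LAP+/OC2- library 1 correlated at 0.86 with LAP+ library 2, library 3 at 0.72 with LAP+ library 1, library 4 at 0.60 with LAP+ library 3, and library 5 at 0.41 with LAP+ library 4. Each LAP+/OC2- library had its highest correlation with a different LAP+ library, and none of these pairs carries the same number. The other 12 pairs lay between -0.58 and 0.25. Genes are not independent replicates, and a correlation among deviations from a mean of 4 libraries is a description of these libraries only. In LAP+/OC2- library 1 and LAP+ library 2 the sums of the run on chromosome 6 were the highest of their groups, at 1722 and 1947 CPM, and those of the run on chromosome 3 the lowest, at 27.1 and 33.1 CPM. In each of these 4 pairs, which were chosen from the data and not from labels, the sums of the higher runs on chromosomes 10 and 1 were larger in the LAP+/OC2- than in the LAP+ library. This is a description, and no test was made of it.

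The share of genes in which a library lay farthest from its own group, by the same gap rule as above, was 4.99% for LAP+/OC2- library 1 and 3.85% for adult library 2. It was 0.39% to 1.81% for the other 6 libraries. The 5% that chance sets apart is for all 4 libraries of a group together, so the share for a single library would be lower.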
